A study of Mus musculus with 9 samples.

Results

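The genes described here encode the protein folding and secretory machinery of the endoplasmic reticulum (ER). They are 48 listed genes of the 49585 in the deposited files, chosen by name and matched to Ensembl identifiers in the mouse annotation GENCODE M21 (GRCm38). The choice was made with earlier results of these data known. All 48 passed the filter on low values. They comprise 9 folding chaperones and cochaperones, 6 lectin chaperones and disulfide isomerases, 6 stress sensors and transcription factors, 15 translocon and signal peptidase genes, 6 genes of ER-associated degradation, and 6 genes of ER export and retrieval.

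Polyadenylated RNA was sequenced from 9 libraries of organoids, 3-dimensional epithelial cultures, grown for 5 days from flow-sorted prostate basal cells of C57BL/6J mice. BM, the basal medium of the first 3 libraries, contained EGF (50 ng/ml), Noggin (100 ng/ml), A83-01 (200 nM) and Y-27632 (10 µM), and the other groups received these factors too. R, in 3 libraries, added 500 ng/ml R-spondin1, a secreted ligand that strengthens Wnt signaling. RD7 was R with the androgen dihydrotestosterone (DHT) at 100 nM, in 3 libraries. No group here had DHT without R-spondin1, the labels give neither age nor the number of animals or sorts, and nothing states that replicate libraries are separate cultures, so p-values measure only the spread between these samples, which may be technical.

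Secreted and membrane proteins enter the ER through the Sec61 channel, lose their signal peptide there, and fold with the help of BiP (Hspa5), the lectin chaperones and the disulfide isomerases. When unfolded protein accumulates, the sensors IRE1, ATF6 and PERK start the unfolded protein response, whose transcription factors XBP1, ATF6 and ATF4 raise the genes for chaperones, degradation and export. Luminal cells of the prostate secrete large amounts of protein in response to androgen, whereas basal cells secrete little.

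Levels are FPKM (reads scaled to gene length and to the reads of the library), given as mean ± SD with n = 3 libraries per group. The length that fits the files is the merged exon length of GENCODE M21 for 38 of the 48 genes and another, fitted length for 10. Log2 fold changes, with their standard error (SE), are on the log2(FPKM + 0.5) scale, which understates the change of genes with low values. A gene was called when its Benjamini-Hochberg adjusted p from limma, over 15867 genes tested, was under 0.05. Between 6505859 reads (BM 1) and 24141017 reads (BM 2) were counted per library. The sorted-cell label was checked against marker genes: the basal keratin gene Krt5 stood at 2292 FPKM or more in every library and the luminal keratin gene Krt8 at 609 or more. Summed markers of immune cells were at most 4.13 FPKM, those of endothelial cells at most 0.56, and those of neuroendocrine cells at most 0.66. The summed mesenchymal list stood at 16.0 to 29.4 FPKM in BM and R and at 65.1 to 93.2 in RD7. Its largest part in BM was Acta2, at 9.67 to 16.3 FPKM there and 0.973 to 1.53 in RD7, and in RD7 it was Dcn, at 3.91 to 6.24 in BM and 63.9 to 91.7 in RD7, where Pdgfra was at most 0.052 and Col1a1 at most 0.051.

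Some of the ER genes carry a known regulatory sequence, the ER stress response element. It is shown first because 3 of the genes called below carry it. The element is CCAAT, then any 9 bases, then CCACG. A RefSeq promoter (GRCm38.p6) was found for 36 of the 48 genes, and 250 bases before the start were searched on both strands. The element lay in 9 of the 36 (25%): Calr, Canx, Creld2, Derl3, Dnajc3, Hsp90b1 (with 2 copies), Hspa5, Pdia6 and Syvn1. Of all 27025 genes with a promoter in the table, 35 (0.13%) had it. The 48 genes were chosen by name for this pathway, so the difference in share is not an independent result. The lines below give the sequence on the gene's strand, 5′ to 3′, for 3 genes that were higher with DHT (Dnajc3, Pdia6 and Derl3) and 2 that were not called (Hspa5 and Canx), and the variant element of Herpud1. Capitals mark the fixed letters of the element, which in Derl3 runs in the opposite orientation.
Dnajc3 (chr14:118937815-118937857, plus strand): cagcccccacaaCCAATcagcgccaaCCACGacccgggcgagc
Pdia6 (chr12:17266479-17266521, plus strand): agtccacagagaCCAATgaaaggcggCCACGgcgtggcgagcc
Derl3 (chr10:75893230-75893272, plus strand): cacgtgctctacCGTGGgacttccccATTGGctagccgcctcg
Hspa5 (chr2:34772013-34772055, plus strand): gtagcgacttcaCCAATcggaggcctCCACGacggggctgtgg
Canx (chr11:50325788-50325830, minus strand): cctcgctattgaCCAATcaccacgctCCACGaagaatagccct
Herpud1 (chr8:94386365-94386399, plus strand): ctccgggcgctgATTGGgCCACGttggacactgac

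The variant in Herpud1, ATTGG and CCACG parted by any 1 base, was in 1 of the 36 promoters and in 10 of all 27025 (0.037%). The shorter XBP1 core CCACGT, which can overlap the end of either element, was in 13 of the 36 (36.1%) and in 2120 of all genes (7.84%). TGACGTGG, the unfolded protein response element, was in Kdelr3 and Sec24d (5.56%) and in 163 of all genes (0.603%). Of the 10 genes called higher with DHT below, 8 had a promoter in the table and 3 of these the ER stress response element, against 6 of the 28 with a promoter among the genes not called. A match is a description of these letters and not evidence of binding.

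Few of these genes differed with R-spondin1 alone beyond the threshold. In R against BM, 1 of the 48 genes was called higher (2.08%), Xbp1, and 0 were called lower by limma, where 4.39% of all genes tested were called higher and 5.64% lower. At an unadjusted p under 0.05 there were 5 of the 48 (10.4%, against 25.9% of all genes), and the voom version of limma on reads recovered from the FPKM also called 1 higher and 0 lower. The median log2 fold change was -0.05 over the 48 genes and 0.02 over all genes. Xbp1, whose spliced messenger RNA encodes the transcription factor of the IRE1 branch, stood at 129, 115 and 134 FPKM in the BM libraries, at 181, 197 and 169 in R, and at 147, 196 and 159 in RD7. Each R library lay above each BM library, and the RD7 libraries overlapped those of R. The change was 0.54 ± 0.14 (SE) with limma adjusted p = 0.037, and 9 of 18 alternative settings lost the call, with adjusted p up to 0.17; among them were the fits without BM 1, BM 2, R 1, R 2, R 3 or RD7 3. A gene-level FPKM does not tell spliced from unspliced Xbp1. Herpud1, a degradation gene, stood at 106, 126 and 122 FPKM in BM and at 154, 168 and 143 in R, without overlap, but missed the threshold (0.40 ± 0.12, limma adjusted p = 0.078). Without BM 3, 7 genes were called higher in R: Xbp1, Manf, Ssr2, Ssr4, Spcs1, Spcs2 and Sec11a. That is 14.6% of the 48, near the 13.2% of all genes called higher in the same fit.

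With DHT on top of R-spondin1, a minority of the machinery rose, among it small translocon subunits, a signal peptidase subunit and CREB3-family factors. In RD7 against R, 10 of the 48 genes were called higher (20.8%) where 13.4% of all genes were, and 0 were called lower by limma where 17.7% of all genes were. Because the 48 were chosen with earlier results known, a difference in share from all genes is not an independent result. At an unadjusted p under 0.05 there were 18 of the 48 (37.5%, against 42.9% of all genes). Limma-voom called 14 higher and 1 lower (29.2% and 2.08%, against 14.4% and 19.6% of all genes). The median log2 fold change was 0.18 over the 48 genes and -0.09 over all genes. RD7 lay wholly above R for 19 genes (39.6%, against 21.7% of all genes) and wholly below it for 5 (10.4%, against 30.1%). The 10 were Sec61b, Sec61g, Ssr4 and Sec11c of the translocon and signal peptidase, Sdf2l1 and Dnajc3 among the chaperones, Pdia6 among the isomerases, the transcription factors Creb3l1 and Creb3l4, and Derl3 of the degradation group. Without BM 3, which enters through the shared estimate of spread, 15 were called higher and 1 lower (31.2% and 2.08%, against 16.6% and 19.6% of all genes). The RNA came from whole organoids, so more cells of a type and more RNA per cell cannot be told apart. The summed prostate secretory markers were 5.08 to 5.37 FPKM in BM, 9.32 to 10.1 in R and 252 to 309 in RD7, and their part in these changes was not tested. The list did not move as a whole. Of its 9 genes 6 were tested, and 5 of these were called higher by limma: Sbp (161 to 191 FPKM in RD7), Spink5 (64.2 to 89.5), Azgp1, Apof and Pbsn. Tgm4 was not called, at 2.56 to 3.05 FPKM in R and 1.97 to 3.63 in RD7, Pate4 was listed at 0 in RD7, and Msmb and Spink1 were at 0.29 or less in every library.

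**Figure D1:**
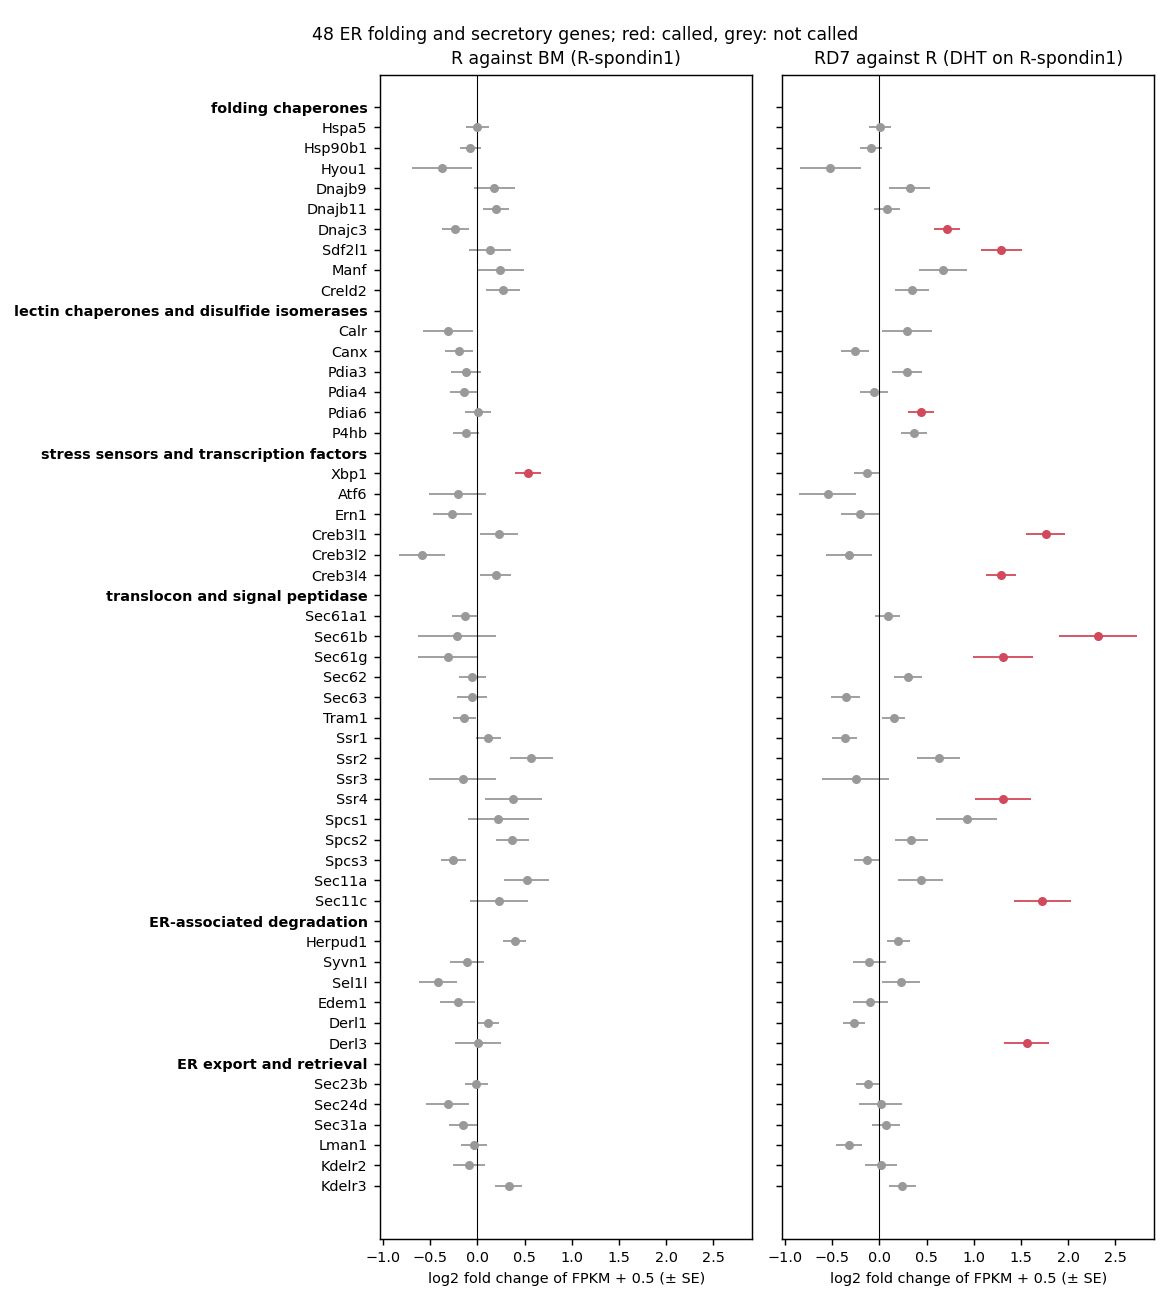
Log2 fold change of FPKM + 0.5 (x axis, ± SE) for each of the 48 genes (y axis, grouped by role), R against BM on the left and RD7 against R on the right, 3 libraries per group. Red points are genes called by limma: Xbp1 on the left, and 10 genes on the right, all above 0.

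The abundant chaperones Hspa5 and Hsp90b1 were not called with DHT. Hspa5, which encodes BiP, the main Hsp70 chaperone of the ER, stood at 219, 234 and 230 FPKM in BM, at 219, 249 and 216 in R, and at 218, 219 and 248 in RD7. The 3 groups overlapped, and the difference of RD7 from R was 0.00 ± 0.12 (SE) on the log2 scale (limma adjusted p = 0.99). Hsp90b1, the Hsp90 of the ER, stood at 156, 162 and 166 FPKM in R and at 150, 153 and 152 in RD7. Every RD7 library was below every R library, and the difference was -0.09 ± 0.12 (limma adjusted p = 0.59). Hsp90b1 shares 15.7% of its exon bases with 3 other annotated genes, 2 of them on its own strand, and how reads there were assigned is not given in the sources used here. It is 1 of 7 of the 48 genes that share 8.16% to 16.3% of their exon bases with other genes, with Manf, Sec61a1, Sec62, Ssr2, Spcs1 (the highest) and Sec11a.

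Of the 9 chaperones and cochaperones, 2 were called higher with DHT. Sdf2l1, a cochaperone of the BiP system, stood at 24.7, 20.7 and 35.4 FPKM in BM, at 34.6, 29.9 and 23.1 in R, and at 60.4, 82.3 and 73.1 in RD7. The RD7 libraries were all above the others, and the mean rose 2.46-fold, from 29.2 ± 5.77 to 71.9 ± 11.0 (SD, n = 3 each; 1.29 ± 0.22 on the log2 scale, limma adjusted p = 0.0016). Dnajc3, a DnaJ cochaperone of BiP also known as an inhibitor of PERK, averaged 25.9 ± 0.07 FPKM in R and 42.9 ± 3.32 in RD7, a 1.66-fold rise (0.72 ± 0.14, limma adjusted p = 0.0038). Dnajb9, a DnaJ cochaperone and well-known XBP1 target, stood at 11.0, 11.2 and 8.74 FPKM in R and at 14.7, 11.7 and 12.5 in RD7. These did not overlap, but the difference missed the threshold (0.32 ± 0.22, limma adjusted p = 0.29). Manf, a secreted factor induced by ER stress, came close, at 25.7 ± 4.82 FPKM in R and 41.1 ± 5.34 in RD7 (limma adjusted p = 0.066), and passed in 5 of the 18 alternatives. Hyou1, Dnajb11 and Creld2 were not called.

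Among the lectin chaperones and disulfide isomerases, 1 of 6 was called. Pdia6, a disulfide isomerase, averaged 140 ± 8.43 FPKM in R and 191 ± 30.0 in RD7, a 1.37-fold rise (0.44 ± 0.14, limma adjusted p = 0.035), and its call was lost in 7 of the 18 alternatives, with adjusted p up to 0.12; these included the fits without R 1, R 2, R 3, RD7 2 or RD7 3. P4hb, the classical protein disulfide isomerase and the most abundant of the 48 in every group, stood at 410, 420 and 367 FPKM in BM, at 350, 379 and 370 in R, and at 511, 514 and 401 in RD7. RD7 lay above R throughout, and the adjusted p was 0.062 (limma, 0.37 ± 0.13). Calr, the soluble lectin chaperone, stood at 100, 234 and 127 FPKM in BM, at 110, 123 and 113 in R, and at 142, 120 and 164 in RD7, so that all groups overlapped and BM 2 was the highest library. Canx, its membrane-bound relative, averaged 114 ± 11.3 FPKM in R against 95.0 ± 10.6 in RD7 (limma adjusted p = 0.20). Pdia3 stood at 200, 204 and 191 FPKM in R and at 223, 224 and 288 in RD7. These did not overlap, but the gene was not called (0.29 ± 0.16, limma adjusted p = 0.19). Pdia4 was not called either, and its R and RD7 libraries overlapped.

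**Figure D2:**
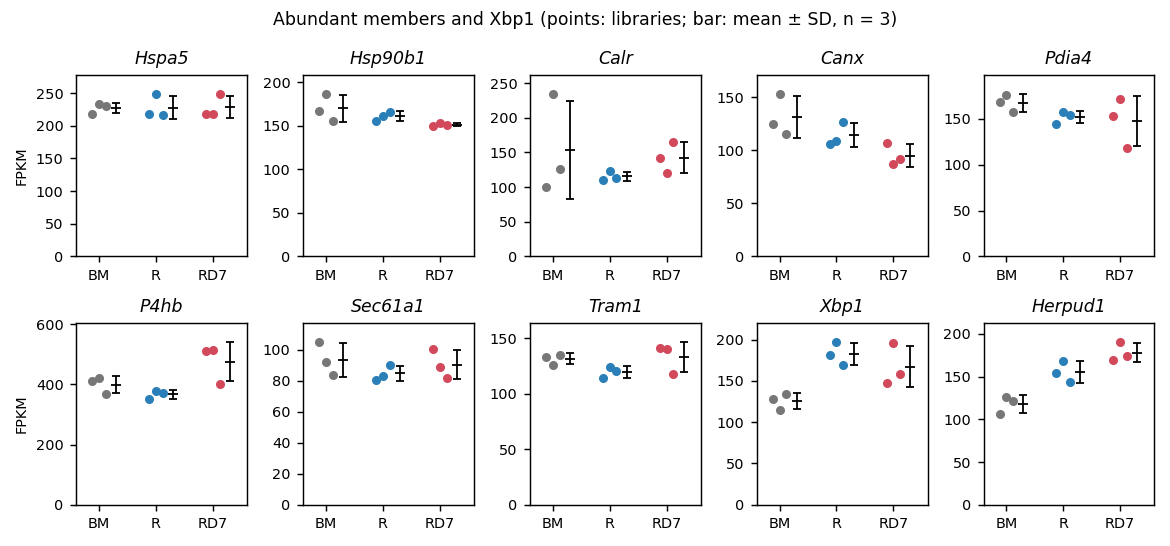
FPKM (y axis, from 0) of 10 picked genes, most of them abundant, in each library of BM, R and RD7 (x axis). Points are libraries and bars the mean ± SD (n = 3). Not shown here are the abundant genes Pdia3 and Pdia6, with means of 198 and 140 FPKM in R and 245 and 191 in RD7. Hspa5 is level across the groups near 228, Xbp1 and Herpud1 sit higher in R than in BM, and P4hb sits higher in RD7 than in R.

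Of the 6 stress sensors and transcription factors, 2 were called, and both are membrane-bound factors of the CREB3 family. These are released from the ER and Golgi membranes by proteolysis, as ATF6 is. Creb3l4, known in the human prostate as an androgen-induced factor, stood at 4.58, 4.88 and 5.50 FPKM in BM, at 6.19, 6.15 and 5.01 in R, and at 12.2, 16.1 and 16.5 in RD7. RD7 was above both other groups in every library, 2.58-fold above R in the mean (1.29 ± 0.16, limma adjusted p = 2.0e-04). Creb3l1 stood at 0.295, 0.255 and 0.255 FPKM in BM, at 0.217, 0.578 and 0.443 in R, and at 3.11, 2.96 and 1.77 in RD7. Its RD7 libraries were all above the others, 6.33-fold above R in the mean (1.76 ± 0.21, limma adjusted p = 1.4e-04), and its 3 groups held 34, 69 and 370 reads.

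Neither Atf6, Ern1 nor Creb3l2 was called with DHT. Atf6, a sensor that becomes a transcription factor on cleavage, stood at 3.23, 5.76 and 2.65 FPKM in BM, at 2.90, 2.55 and 4.11 in R, and at 2.66, 1.21 and 2.32 in RD7. Ern1, which encodes IRE1, stood at 4.23, 4.53 and 3.57 in BM, at 2.87, 2.88 and 4.37 in R, and at 3.69, 2.28 and 2.64 in RD7. Creb3l2 stood at 6.86, 9.37 and 5.76 in BM, at 4.04, 4.18 and 5.81 in R, and at 4.84, 2.56 and 3.72 in RD7. For each of these 3 genes the R and RD7 libraries overlapped. The log2 ratio of Creb3l4 to Creb3l2 was 0.29 ± 0.42 in R and 1.9 ± 0.60 in RD7 (SD, n = 3 libraries each); this pair, like those below, was picked after the values were seen. An exact two-sided permutation test, 3 libraries against 3, gave p = 0.1 for it and for the pairs of Sec11c and Derl3 below, the smallest p this design allows (0.125 adjusted over the 5 pairs computed), so it can call nothing.

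Of the 15 translocon and signal peptidase genes, 4 were called (26.7%), and the group's summed FPKM rose from 629 ± 27.8 in R to 853 ± 87.8 in RD7, 1.36-fold. The Sec61 channel is built of 3 subunits, and 2 of them were called. Sec61b, the β subunit, stood at 14.1, 11.6 and 33.7 FPKM in BM, at 22.1, 10.0 and 15.8 in R, and at 68.0, 119 and 58.9 in RD7. Every RD7 library was above every other library, and the mean was 5.12-fold that of R (2.32 ± 0.42, limma adjusted p = 0.0023). Sec61g, the γ subunit, averaged 1.35 ± 0.67 FPKM in R and 4.03 ± 1.33 in RD7, a 2.98-fold rise at a low level (1.31 ± 0.32, limma adjusted p = 0.012; 0.0503 without R 2). Sec61a1, which encodes the α subunit that forms the pore, stood at 105, 91.9 and 83.6 FPKM in BM, at 80.8, 83.2 and 90.3 in R, and at 100, 89.0 and 81.7 in RD7. Its groups overlapped, and the change was 0.09 ± 0.13 (limma adjusted p = 0.65).

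Ssr1 to Ssr4 encode the 4 subunits of the translocon-associated protein complex, and 1 of them was called. Ssr4 stood at 8.14, 5.85 and 15.2 FPKM in BM, at 14.1, 9.32 and 12.7 in R, and at 28.0, 37.5 and 26.1 in RD7. RD7 was above both other groups without overlap, 2.54-fold above R (1.31 ± 0.30, limma adjusted p = 0.0090). Ssr2 averaged 79.4 ± 14.8 FPKM in R against 124 ± 29.3 in RD7 (limma adjusted p = 0.059), and Ssr1 at 35.7 ± 2.80 and 27.5 ± 1.32, lower in every RD7 library (limma adjusted p = 0.055). Ssr1 was called lower in 5 of the 18 alternatives, and Hyou1 in 1, without RD7 1. Ssr3 was not called.

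Signal peptidase has a catalytic subunit encoded by either Sec11a or Sec11c. Sec11c stood at 6.73, 8.44 and 17.0 FPKM in BM, at 15.2, 9.98 and 10.5 in R, and at 33.9, 49.9 and 37.5 in RD7. The RD7 libraries were all above the rest, 3.40-fold above R in the mean (1.73 ± 0.31, limma adjusted p = 0.0021). Sec11a stood at 20.8 ± 2.89 in R and 28.4 ± 3.78 in RD7 (0.44 ± 0.24, limma adjusted p = 0.19). The log2 ratio of Sec11c to Sec11a was -0.80 ± 0.18 in R and 0.49 ± 0.23 in RD7. Which of the pair is the more abundant in RD7 depends on the length. In FPKM Sec11c averaged 40.4 ± 8.37 there, above Sec11a. The length that fits the Sec11c values is 3084 bases, where its merged GENCODE M21 length is 6808. Reads recovered for Sec11c rest on that fitted length, so they cannot settle the order. Of the other peptidase subunits, Spcs1 missed the threshold at 1.88-fold (limma adjusted p = 0.052), and Spcs2 and Spcs3 were not called; nor were Sec62, Sec63 and Tram1.

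**Figure D3:**
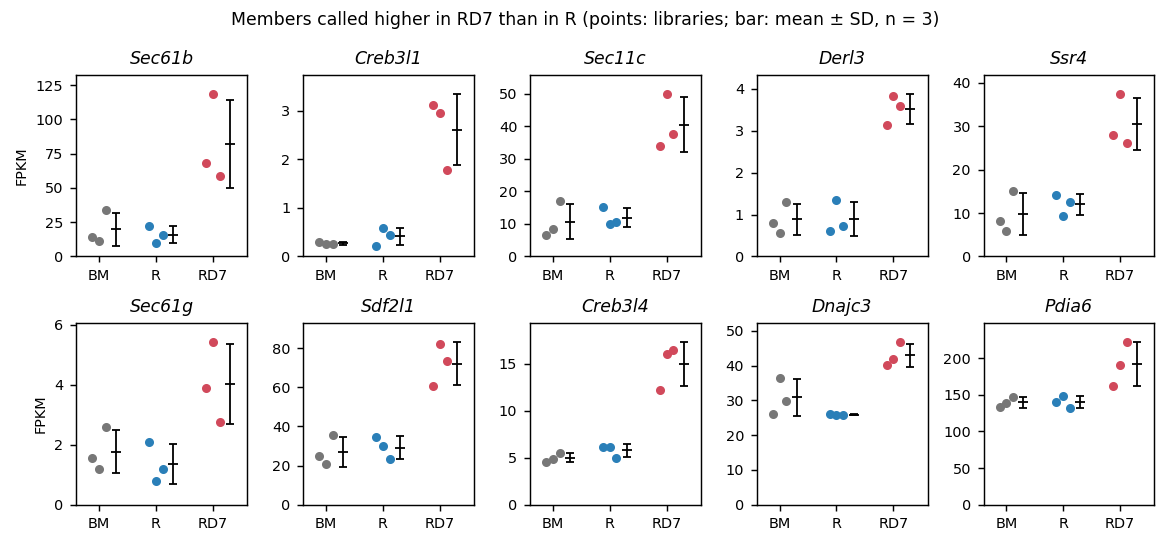
FPKM (y axis, from 0, a scale for each gene) of the 10 genes called higher in RD7 than in R, in each library of BM, R and RD7 (x axis); points are libraries and bars the mean ± SD (n = 3). For each gene the 3 RD7 points lie above the 3 R points, and RD7 2 is the highest RD7 library for Sec61b, Sec61g, Ssr4, Sec11c, Sdf2l1 and Derl3.

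In the degradation group, which returns misfolded protein to the cytosol, 1 of 6 genes was called. Derl3, a derlin typical of secretory cells, stood at 0.805, 0.558 and 1.30 FPKM in BM, at 0.610, 1.35 and 0.726 in R, and at 3.14, 3.84 and 3.59 in RD7. Its RD7 libraries were all above the others, 3.93-fold above R in the mean (1.56 ± 0.24, limma adjusted p = 8.7e-04), on 59, 76 and 254 reads in the 3 groups. Derl1 stood at 54.0 ± 3.15 in R and 44.7 ± 2.15 in RD7, lower in every RD7 library (-0.27 ± 0.12, limma adjusted p = 0.10), and remained the more abundant derlin. The log2 ratio of Derl3 to Derl1 was -5.32 ± 0.31 in R and -3.49 ± 0.20 in RD7. Syvn1, the ubiquitin ligase of the pathway, its partner Sel1l, the mannosidase-like Edem1 and Herpud1 were not called in RD7 against R. Of these, Herpud1 was higher in every RD7 library, at 170, 190 and 175 FPKM against 154, 168 and 143 in R (limma adjusted p = 0.25).

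None of the 6 export and retrieval genes was called. Their summed FPKM was 162 ± 10.4 in R and 162 ± 21.2 in RD7. Kdelr3, a receptor that returns escaped chaperones to the ER, stood at 7.61, 8.32 and 9.41 FPKM in BM, at 10.9, 11.6 and 9.73 in R, and at 11.5, 12.4 and 14.5 in RD7, with R and RD7 overlapping (limma adjusted p = 0.22). Sec24d, a cargo-binding subunit of the COPII coat, stood at 14.5, 15.9 and 10.3 in BM, at 9.55, 10.6 and 11.9 in R, and at 15.3, 9.02 and 8.94 in RD7, where RD7 1 stood apart from the other two. The log2 ratio of Kdelr3 to Kdelr2 was -2.52 ± 0.23 in R and -2.30 ± 0.45 in RD7 (exact two-sided permutation p = 0.7). Sec23b, Sec31a, Lman1 and Kdelr2 were not called.

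By level, of the 11 genes with a mean of at least 100 FPKM in R, 1 was called higher with DHT, and of the 37 below it 9 were. The cut uses R, which is also the baseline of this change. Over all levels pooled, 13.4% of all genes tested were called higher. The shares of all genes above and below the cut were not computed, so this split has no matched background. Reads from the 48 genes made up 1.04% ± 0.022 of all reads in R and 1.16% ± 0.016 in RD7 (1.07% ± 0.084 in BM), and their summed FPKM was 2908 ± 74.0 in R and 3435 ± 139 in RD7, 1.18-fold.

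Gene length went with the size of the change. Across the 48 genes, Spearman's rho between gene length and the log2 fold change of RD7 against R was -0.67, and it was -0.22 across all 15867 genes, which are not independent replicates and come from the same libraries. Over the 48 genes and over all genes, rho was -0.45 and -0.33 in R against BM, and -0.74 and -0.38 in RD7 against BM. In RD7 against R, 8 of the 24 genes shorter than the median length of 3495 bases were called higher, and 2 of the 24 longer ones. In RD7 against BM, 14 of the shorter were higher and 1 lower, and 5 of the longer were higher and 3 lower. The shares of all genes called at these lengths were not computed. Among the 24 shorter genes the highest library of its group was BM 3 for 15, R 2 for 14 and RD7 2 for 14, and among the 24 longer ones BM 2 for 16, R 3 for 13 and RD7 1 for 14. In RD7 against R, removing the trend with length that each library showed over all genes gave 16 genes called higher in place of 10 and 0 lower. Over all genes the calls went from 2121 to 2633 higher and from 2816 to 2384 lower. The change of Sec61b was then 2.14 (limma adjusted p = 5.6e-04). The part of library-wide length effects in the single changes was not tested further.

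**Figure D4:**
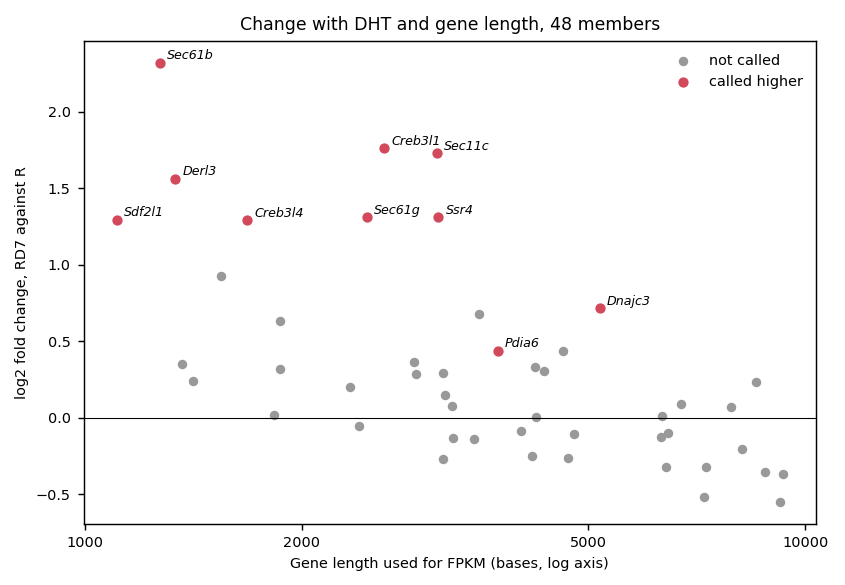
Log2 fold change of RD7 against R (y axis) against the gene length used for FPKM (x axis, in bases, log scale) for the 48 genes, as points; red points are the 10 called higher. Of these 10, 8 are shorter than the median length of 3495 bases, and the longest genes lie near or below 0.

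With both factors together, RD7 against BM, 19 of the 48 genes were called higher (39.6%, against 21.6% of all genes) and 4 lower (8.33%, against 25.4%). This comparison shares RD7 or BM with the other two and is their sum. The 19 comprised the 10 genes called in RD7 against R, Xbp1, Herpud1, Manf, Creld2, Ssr2, Spcs1, Spcs2, Sec11a and Kdelr3. Herpud1, at 118 ± 10.3 FPKM in BM and 178 ± 10.6 in RD7, changed by 0.60 ± 0.12 (limma adjusted p = 0.0044), and Ssr2, at 53.8 ± 13.5 and 124 ± 29.3, by 1.20 ± 0.23 (limma adjusted p = 0.0027). The 4 lower were Hyou1, a nucleotide exchange factor of BiP, Canx, Creb3l2 and Spcs3. Creb3l2 stood at 7.33 ± 1.85 FPKM in BM and 3.71 ± 1.14 in RD7 (-0.91 ± 0.24, limma adjusted p = 0.014). Over the 18 alternatives 11 of the 19 and 0 of the 4 kept their call throughout. Without BM 2 or without RD7 2, 13 genes were called higher and 0 lower, without BM 1, 12 and 1, without RD7 1, 18 and 8, without BM 3, 20 and 7, and without R 1, R 2 or RD7 3, 2 lower. Over all genes the fits without 1 library called 14.0% to 25.7% higher and 16.5% to 28.0% lower.

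The wider pathway was read from 7 lists holding 127 further genes, of which 121 were tested. In RD7 against R, 29 were called higher (24%, against 13.4% of all genes) and 9 lower (7.44%, against 17.7%). In R against BM, 5 were called higher (4.13%, against 4.39% of all genes) and 4 lower (3.31%, against 5.64%). These lists too were chosen with earlier results of these data known, so their shares are not independent results. By list, the share higher with DHT was 9.68% to 35.3%, lowest for the COPII coat and cargo receptors, and the share lower 0% to 25%. Of 22 tested genes of oxidative folding, 7 were higher and 1 lower with DHT. Agr2, a disulfide isomerase of mucus-secreting epithelia, rose from 18.5 ± 4.97 to 68.5 ± 12.9 FPKM and Fkbp2, a prolyl isomerase of the ER, from 25.0 ± 5.45 to 83.6 ± 27.6 (limma adjusted p = 0.0040 and 0.0037). Ero1l, the oxidase that recharges the isomerases, rose with R-spondin1 from 62.7 ± 6.07 to 98.8 ± 5.21 and with DHT stood at 63.7 ± 6.67 (limma adjusted p = 0.0091 and 0.0048). Qsox1 and Dnajc10 were lower in R than in BM, at 9.88 ± 0.86 against 18.6 ± 4.56 and 36.1 ± 0.74 against 58.8 ± 6.90 (limma adjusted p = 0.011 and 0.016, the latter lost without BM 1, R 1 or R 2). Dnajc10 was higher in RD7 than in R (limma adjusted p = 4.5e-04), a call kept in all 18 alternatives, and Qsox1 was not called there (limma adjusted p = 0.48).

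The list of PERK-branch genes and other regulators split, with 3 of 12 higher and 3 lower with DHT. Bhlha15, which encodes MIST1, a factor of professional secretory cells, stood at 0.843, 0.935 and 1.10 FPKM in R and at 11.6, 8.30 and 7.84 in RD7. The groups were far apart, with a log2 fold change of 2.72 ± 0.17 (limma adjusted p = 1.4e-06). Chac1 and Trib3, targets of ATF4, had risen with R-spondin1, from 16.6 ± 2.92 to 39.2 ± 3.17 and from 22 ± 1.67 to 43.4 ± 2.14 FPKM, and fell with DHT to 11.6 ± 1.16 and 13.3 ± 0.30. All 4 changes passed in limma (adjusted p = 4.8e-04, 3.7e-04, 1.6e-05 and 2.8e-06). Ern2, the epithelial relative of IRE1, fell from 4.16 ± 1.61 in BM to 0.365 ± 0.13 in R (limma adjusted p = 2.2e-04) and stood at 1.22 ± 0.42 in RD7 (limma adjusted p = 0.018, lost without R 1, R 2 or RD7 2).

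Among N-glycosylation genes 5 of 16 were higher and 1 lower with DHT, with the oligosaccharyltransferase subunits Ost4 (10.5 ± 3.46 to 30.5 ± 12.3 FPKM) and Krtcap2 (7.72 ± 2.39 to 22.1 ± 7.29) higher and Ganab, the catalytic subunit of glucosidase II, lower (60.4 ± 6.68 to 39.1 ± 9.32). The further degradation genes had 6 of 17 higher and 0 lower, among them Selenos (43.1 ± 5.00 to 93.3 ± 17.1) and Erlec1 (2.58 ± 0.21 to 4.41 ± 0.64). Signal recognition and translocation had 3 of 15 higher and 0 lower, including Srp9 (10.8 ± 2.05 to 21 ± 2.54) and Emc2 (20.3 ± 2.64 to 32.9 ± 5.69). The COPII coat and cargo receptors had 3 of 31 higher, Tmed3 (16.7 ± 2.53 to 36.5 ± 5.79) and Ergic3 (82.5 ± 10.1 to 125 ± 18.5) among them, and 4 lower, among them Sec24b (12.6 ± 1.43 to 8.03 ± 1.85) and Sec23a (10.1 ± 0.82 to 6.88 ± 1.34). In the COPI coat 2 of 8 were higher, Copz2 (3.39 ± 0.79 to 11.7 ± 2.31) and Cope (55.1 ± 8.0 to 92.6 ± 16.5), and 0 lower. Of these 13 genes, Selenos, Tmed3 and Copz2 kept their call in all 18 alternatives, and the other 10 lost it without R 2, without R 3 and without RD7 2, 8 of them also without RD7 3, 4 without R 1 and 1 without BM 1.

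**Figure D5:**
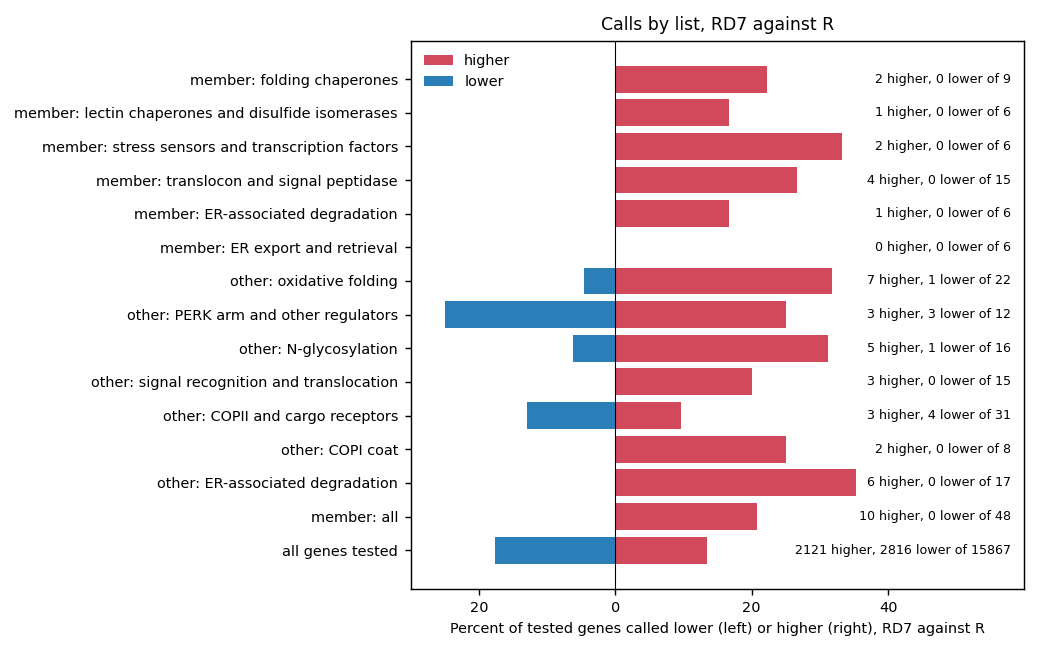
Percent of tested genes called lower (bars to the left) or higher (bars to the right) in RD7 against R (x axis), for the 6 role groups of the 48 genes, the 7 further lists, the 48 together and all genes tested (y axis). The 48 genes had 10 higher and 0 lower, all genes 2121 higher and 2816 lower.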

How the data were processed

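Per the file headers, the deposited values are FPKM per gene and library, computed by the authors; tools named by the submitters' processing notes are featureCounts, STAR 2.6.1a, CASAVA 1.9 and edgeR 3.24.1, and the build is GRCm38, without roles, annotation release or strand setting. The labels name a kit that amplifies full-length cDNA, and no molecular identifiers. Reads were recovered by multiplying FPKM by gene length (GENCODE M21, or a fitted length for 3841 genes); products were whole within 0.01 reads for 22971 of the 26813 genes above 0. Depth is given in the report.

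Log2(FPKM + 0.5) was fitted with limma 3.58.1 (R 4.3.3; trend and robust empirical Bayes; 1 mean per group; 6 residual degrees of freedom) on genes that reached 0.5 CPM in 3 or more libraries. Tests were two-sided and adjusted over all 15867 genes. Code was tested on simulated data. The members, lists, and role groups were chosen with earlier results of these data known. Values per library are given for a listed set (among them Hspa5, Xbp1 and Sec61b) and for the 5 called members with the largest log2 fold change per direction; from each wider list up to 2 called genes per direction are named. Plots used Python 3.11.15 and matplotlib 3.10.9. Alternatives changed the pseudocount, filter, scaling, length trend, replicate block, samples and test, and left out each library. Promoter windows came from RefSeq. Protein sequences were not used here.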

Additional observations from a re-analysis of the deposited data

How the results depend on the processing

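Of the 10 genes called higher in RD7 against R, 8 kept the call in all 18 alternatives (Dnajc3, Sdf2l1, Creb3l1, Creb3l4, Sec61b, Ssr4, Sec11c and Derl3), and no direction of a called gene reversed. The count was 16 with the length trend removed (33.3%, against 16.6% of all genes). It was 14 (29.2%) with median-of-ratios scaling, with limma-voom or with the 2 groups alone, against 16%, 14.4% and 17.2% of all genes. It was 8 to 15 when 1 library was left out (8 to 16 with genes called lower), where 8.84% to 16.6% of all genes were higher. Limma-voom, the 2-group fit and the leave-one-out fits gave up to 1 lower, from 0, where 10.8% to 21% of all genes were lower. Median-of-ratios scaling moved the share of calls that were higher, over all genes, from 43.0% to 53.6%, and the median of all genes from -0.09 to -0.02. For R against BM the 1 call became 0 without a filter, with median-of-ratios scaling and with the replicate block, where 1.94% to 3.88% of all genes were higher. It became 0 to 7 when 1 library was left out (0 lower throughout), where 2.32% to 13.2% of all genes were higher and 3.52% to 8.28% lower. For RD7 against BM leaving out 1 library gave 13 to 27 calls, 12 to 20 of them higher and 0 to 8 lower. Over all genes those fits called 14.0% to 25.7% higher and 16.5% to 28.0% lower. The 4 lower became 1 without a filter, with median-of-ratios scaling, the length trend removed, the replicate block or the 2 groups alone. In those settings 12.2% to 22.1% of all genes were lower. With limma-voom the 4 became 7, where 26.2% of all genes were lower. The cause was not tested.

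Whether the replicate numbers in the titles pair the libraries is not stated. Deviations from group means correlated at -0.52 to 0.27 between same-numbered libraries and at -0.58 to 0.58 between others. With 3 libraries per group and correlations of either sign between other numbers, these values cannot settle it. With the replicate block, 9 members were higher in RD7 than in R (18.8%, against 11% of all genes), and 10 without it (20.8%, against 13.4%). In RD7 against BM, 19 in place of 23 were called, 18 higher and 1 lower, where 18.5% and 21.2% of all genes were. Counts of fewer than 100 reads per group limit Creb3l1 and Derl3 in BM and R. With 3 libraries per group, no rule for an outlying library could be applied.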
